A study of Mus musculus with 12 samples.

Results

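The 10 immediate early genes Fos, Fosb, Fosl2, Jun, Junb, Jund, Egr1, Egr2, Atf3 and Ier2 are known to be switched on when tissue is taken apart into cells. They were taken by name, and all 10 were found among the 40840 genes listed for each library. Total RNA of the liver immune cell fraction was sequenced in 12 libraries, 3 for each pairing of genotype (WT or Casp11-/-) and diet (NCD or HFD). The labels number the libraries and do not say whether each came from its own mouse, so p-values measure the spread between these libraries, which may be technical. WT mice were C57BL/6 with normal Casp4, the gene of caspase-11. Casp11-/- mice were of the strain B6.129S4(D2)-Casp4tm1Yuan/J and lack this inflammatory protease in every cell from birth. Male mice aged 8 to 10 weeks were kept on a normal chow diet (NCD) or given a high-fat diet (HFD) for 12 weeks, and neither genotype received another agent. Every liver was perfused, cut, digested at 37 °C with shaking for 20 to 30 minutes, filtered, cleared of red cells and separated from hepatocytes on 33% Percoll. The cells were not sorted, and no library of undigested liver is part of the comparison, so RNA made in the animal and RNA made during the isolation cannot be told apart.

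Immediate early genes need no new protein for their transcription, because the factors that start it are already present and are switched on by phosphorylation. Growth factors, cytokines, calcium, heat and mechanical handling all reach them through the MAP kinases, serum response factor and CREB. The Fos and Jun proteins pair through leucine zippers to form the transcription factor AP-1, Atf3 joins Jun proteins as a stress-induced partner, and the Egr proteins are zinc finger factors. Their messengers are short-lived, so a level reflects the time just before lysis. In liver macrophages and lymphocytes the same genes also answer to bacterial products and injury.

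The deposited values are TPM, reads per gene length scaled to a common total in each library, with a floor of 1.01 below which no value lies. The number of reads behind a TPM is not in the values, so the depth is unknown. WT-NCD replicate 3 stood apart: 39677 of its genes lay above the floor, where the other 11 libraries had 12940 to 18775. On log2(TPM + 1), its Pearson r with the 11 was −0.266 to −0.0681, while the 11 gave 0.846 to 0.986 among themselves, across genes, which are not independent replicates. Protein-coding genes held 14.5% of its TPM and 15.7% to 25.2% in the 6 HFD libraries, while the other NCD libraries held 22.3% to 42.4%, so the comparisons are given with and without WT-NCD replicate 3, and those between diets also after rescaling protein-coding genes to a common total. Casp4 was at 5.60 to 15.6 TPM in the 6 WT libraries, and 2 of the 6 libraries labelled Casp11-/- lay in that range (15.2 TPM in NCD replicate 3 and 8.68 TPM in HFD replicate 2). The values do not show which exons were read. The heading of the latter library abbreviates its genotype differently, so its label is less certain. The labels name the cells hepatic macrophages. Of 10 Kupffer cell markers, 8 to 10 were above the floor in every library, but they summed to 0.0288% to 0.367% of protein-coding TPM in the 11 libraries, against 1.73% to 9.26% for 6 hepatocyte markers. In such bulk samples, fewer cells of a type and less RNA per cell cannot be told apart.

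Of the 10 genes, 9 were well expressed and 1 was not. Among protein-coding genes, the median percentile of the 10 was 88.7 to 97.5 in the 11 libraries and 50.2 in WT-NCD replicate 3. Over the 11 libraries, Fos had the highest median level (152 TPM), followed by Junb (142 TPM), Jund (55.0 TPM), Ier2 (42.1 TPM), Egr1 (41.8 TPM), Jun (38.4 TPM), Fosl2 (26.4 TPM), Fosb (16.5 TPM) and Atf3 (15.7 TPM). TPM is scaled to length, so these levels can be set beside each other. Neighbours in this order were not always apart: Junb exceeded Jund, and Jund exceeded Ier2, in 11 of 11 libraries, whereas Fos exceeded Junb in 8, Ier2 exceeded Egr1 in 7, and Egr1 exceeded Jun and Fosb exceeded Atf3 in 4 each.

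Fos, the founding partner of AP-1, lies on the forward strand at chr12:85473890-85477273 (GRCm38). In replicate order, the WT-NCD libraries gave 152, 515 and 6.31 TPM and the WT-HFD libraries 83.7, 53.0 and 125 TPM. In Casp11-/- mice it was at 166, 71.7 and 156 TPM on NCD and at 38.6, 202 and 158 TPM on HFD. The highest and the lowest value were thus in the same group, WT-NCD. Fosb, a close relative of Fos, gave 18.7, 41.1 and 3.52 TPM in WT-NCD, and the WT-HFD libraries held 12.3, 6.27 and 16.5 TPM. Its values were 38.0, 9.58 and 25.1 TPM in Casp11-/- NCD and 8.29, 8.17 and 28.1 TPM in Casp11-/- HFD, and the 2 diets overlapped. Fosl2, which encodes the more slowly induced Fra-2, was at 23.4, 57.8 and 1.88 TPM in WT-NCD, and WT-HFD gave 16.4, 15.5 and 28.4 TPM. Casp11-/- NCD gave 26.4, 17.1 and 48.8 TPM and Casp11-/- HFD 8.59, 61.8 and 26.8 TPM, so its highest value was on HFD.

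Jun, the partner that gives AP-1 its strongest activation, lies on the reverse strand at chr4:95049034-95052222. The WT-NCD libraries gave 136, 237 and 4.18 TPM, and those of WT-HFD 19.7, 8.19 and 33.4 TPM. In Casp11-/- NCD it was at 38.4, 52.9 and 48.6 TPM, and in Casp11-/- HFD at 18.5, 26.7 and 77.5 TPM. WT-NCD replicates 1 and 2 therefore lay above every other library. Junb, a Jun protein that often restrains Jun, gave 208, 385 and 7.23 TPM in WT-NCD, and the WT-HFD libraries held 59.1, 28.0 and 122 TPM. It was at 151, 100 and 217 TPM in Casp11-/- NCD and at 34.3, 155 and 142 TPM in Casp11-/- HFD. Jund, the family member that resting cells also express, lies at chr8:70698949-70700616. The WT-NCD libraries gave 148, 215 and 4.63 TPM and the WT-HFD libraries 29.0, 13.6 and 55.0 TPM. The values were 150, 56.7 and 125 TPM in Casp11-/- NCD and 25.2, 48.4 and 53.5 TPM in Casp11-/- HFD. WT-NCD replicate 3 apart, every NCD library exceeded every HFD library for Jund, the 1 gene of 9 for which this held, as it did for 5.6% of all genes tested.

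Egr1, a zinc finger factor of growth and stress signals, gave 43.8, 75.9 and 4.33 TPM in WT-NCD, and the WT-HFD libraries held 26.9, 9.15 and 29.2 TPM. It was at 79.1, 21.9 and 47.2 TPM in Casp11-/- NCD and at 16.7, 41.8 and 68.4 TPM in Casp11-/- HFD, so the diets overlapped in Casp11-/- mice, while in WT, replicate 3 of NCD apart, they did not. Egr2, a relative of Egr1 that acts in T cells and macrophages, was at the floor in 9 libraries and reached 1.62 and 1.47 TPM in WT-NCD replicates 2 and 3 and 1.70 TPM in Casp11-/- NCD replicate 3, so a difference in Egr2 was not detectable. Atf3, the stress-induced AP-1 partner, gave 15.7, 58.8 and 6.73 TPM in WT-NCD and, in WT-HFD, 9.28, 7.92 and 23.1 TPM. Its values were 25.4, 15.0 and 37.6 TPM in Casp11-/- NCD and 4.88, 11.1 and 36.4 TPM in Casp11-/- HFD. Ier2, a short nuclear protein induced with Fos, lies at chr8:84661331-84662852. The WT-NCD libraries gave 79.7, 133 and 8.74 TPM and the WT-HFD libraries 19.1, 11.2 and 34.7 TPM. It was at 74.3, 36.0 and 80.2 TPM in Casp11-/- NCD and 14.1, 46.2 and 42.1 TPM in Casp11-/- HFD.

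**Figure D1:**
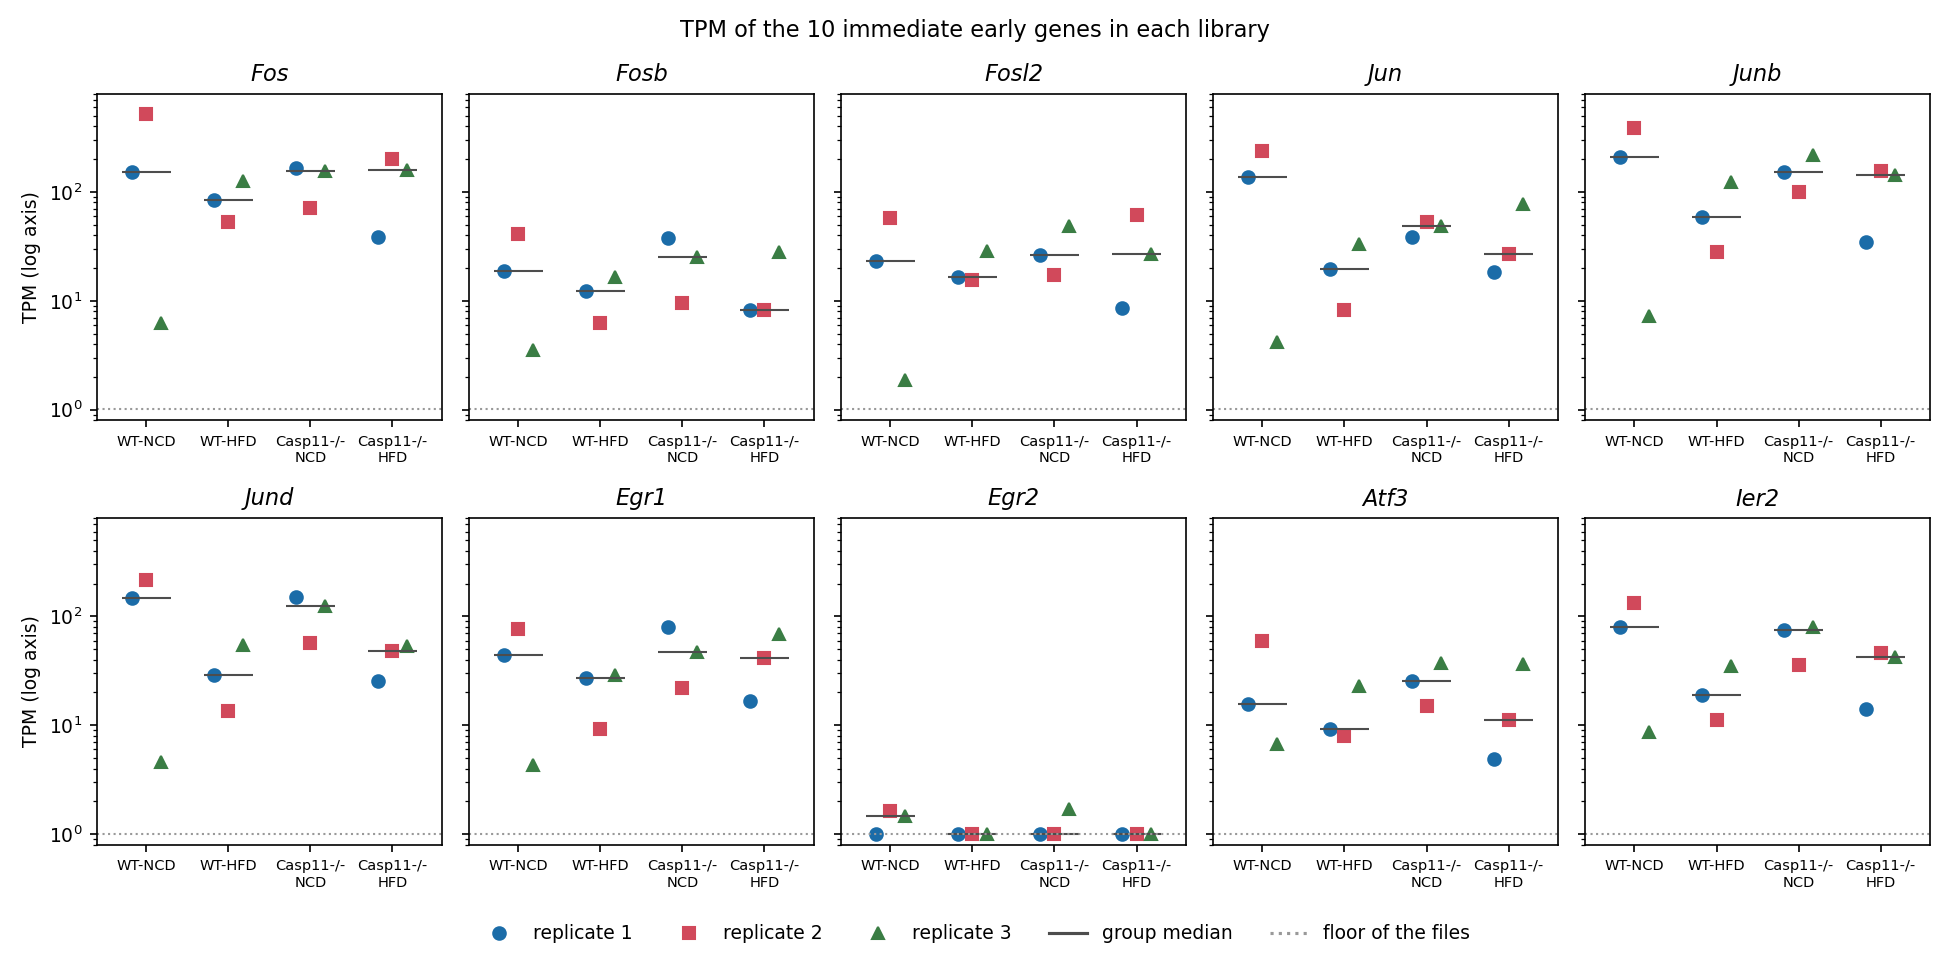
TPM of each immediate early gene (log axis) in the 12 libraries by genotype and diet, with 1 point per library and a bar at the group median. WT-NCD replicate 2 is the highest library of its group for all 10 genes and replicate 3 the lowest for 9 of them, and Egr2 lies at or near the dotted floor.

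The stretch just before the start of these genes is one place where the early signals arrive, and it is shown for Fos, Fosb, Jun, Junb and Atf3. The 120 bases before the start were read from the RefSeq promoter table of GRCm38.p6, 5′ to 3′ along the gene. Capitals mark TGACG or its complement CGTCA, the core that CREB and ATF proteins bind, and in Jun the longer TGACATCA, a variant of the AP-1 element that Jun itself can bind.
Fos (chr12:85473770-85473889, + strand): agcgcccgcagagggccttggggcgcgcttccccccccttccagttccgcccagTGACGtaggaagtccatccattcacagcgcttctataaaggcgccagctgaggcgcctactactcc
Fosb (chr7:19310046-19310165, - strand): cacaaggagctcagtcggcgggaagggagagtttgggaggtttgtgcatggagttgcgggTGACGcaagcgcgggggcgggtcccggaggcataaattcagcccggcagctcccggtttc
Jun (chr4:95052223-95052342, - strand): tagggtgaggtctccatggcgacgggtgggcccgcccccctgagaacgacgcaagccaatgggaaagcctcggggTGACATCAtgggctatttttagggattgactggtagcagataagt
Junb (chr8:84978749-84978868, - strand): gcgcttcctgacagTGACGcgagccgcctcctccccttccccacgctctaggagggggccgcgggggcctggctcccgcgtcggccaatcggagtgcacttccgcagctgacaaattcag
Atf3 (chr1:191183334-191183453, - strand): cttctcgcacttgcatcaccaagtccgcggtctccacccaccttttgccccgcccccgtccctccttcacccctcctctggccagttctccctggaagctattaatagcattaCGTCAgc
A promoter window, 250 bases before to 50 bases after the start, was listed for 8 of the 10 genes (Egr1 and Ier2 had none). TGACG on either strand was found for 5 of the 8 (Fos, Fosb, Junb, Egr2 and Atf3), while 23.0% of all genes with windows held it. TGACATCA was found in Jun alone, against 4.18% of genes. The full cAMP response element TGACGTCA (2.03% of genes) and the AP-1 element TGANTCA (8.97% of genes) were in 0 of the 8, and the CArG box that serum response factor binds was in Egr2 alone (1.81% of genes). The motif TGACG is part of TGACGTCA, so these counts overlap. A match is a description of letters in a window and not of binding.

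Within a group, the low and high libraries were often shared by several of the genes. Without Egr2, WT-HFD replicate 3 was the highest and replicate 2 the lowest of their group for 9 of 9 genes, as they were for 60.3% and 60.5% of all genes. In Casp11-/- HFD, replicate 1 was the lowest for 8 of 9, and Fosb was the exception (8.29 TPM, against 8.17 TPM in replicate 2), while it was the lowest for 38.0% of all genes. The highest library there was replicate 3 for 5 genes and replicate 2 for 4, as for 41.7% and 19.1% of all genes. In Casp11-/- NCD, replicate 2 was the lowest for 8 of 9 and for 67.0% of all genes, and Jun was apart, since it was highest there. Replicates 1 and 3 were each the highest for 4 of the genes, although replicate 3 was the highest for 74% of all genes. The median ratio of the highest to the lowest library was 3.10 in WT-HFD, 2.50 in Casp11-/- NCD and 4.20 in Casp11-/- HFD. It was 30.7 in WT-NCD, and 1.85 between its replicates 1 and 2. Rescaling to protein-coding genes left WT-HFD replicate 3 highest for 9 of 9 and Casp11-/- HFD replicate 1 lowest for 8 of 9, against 59.2% and 31.8% of protein-coding genes tested. WT-HFD replicate 2 was then lowest for 7 genes and Casp11-/- NCD replicate 2 for 6, against 34.6% and 58.9% of protein-coding genes tested. Casp11-/- NCD replicate 1 was highest for 5 and lowest for 3, against 29.0% and 21.5%.

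These genes varied more between libraries of a group than most genes did. In the 11 libraries, the median SD of log2(TPM + 1) around the group means was 0.885 for the 9 genes, against 0.471 for all genes tested and 0.620 for the 2568 genes of like level. Atf3 had the widest spread of the 9 (SD 1.02, above 94.6% of the genes of like level) and Jund the narrowest (SD 0.736, above 72.9%). With all 12 libraries the median SD was 1.34 for the 10 genes and 0.760 for all genes. The deviations of the genes from their group means went together. Over 36 pairs of genes in the rescaled values of the 11 libraries, the median Pearson r was 0.706, and 0.821 in the values as deposited, where the genes also share the scaling of the library. The closest pair was Junb with Ier2 (r = 0.970, rescaled) and the loosest Fosb with Fosl2 (r = 0.0605). The 11 points share libraries and groups, and these r are descriptions. No r was computed for pairs of other genes, so whether these genes went together more than others do was not tested.

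**Figure D2:**
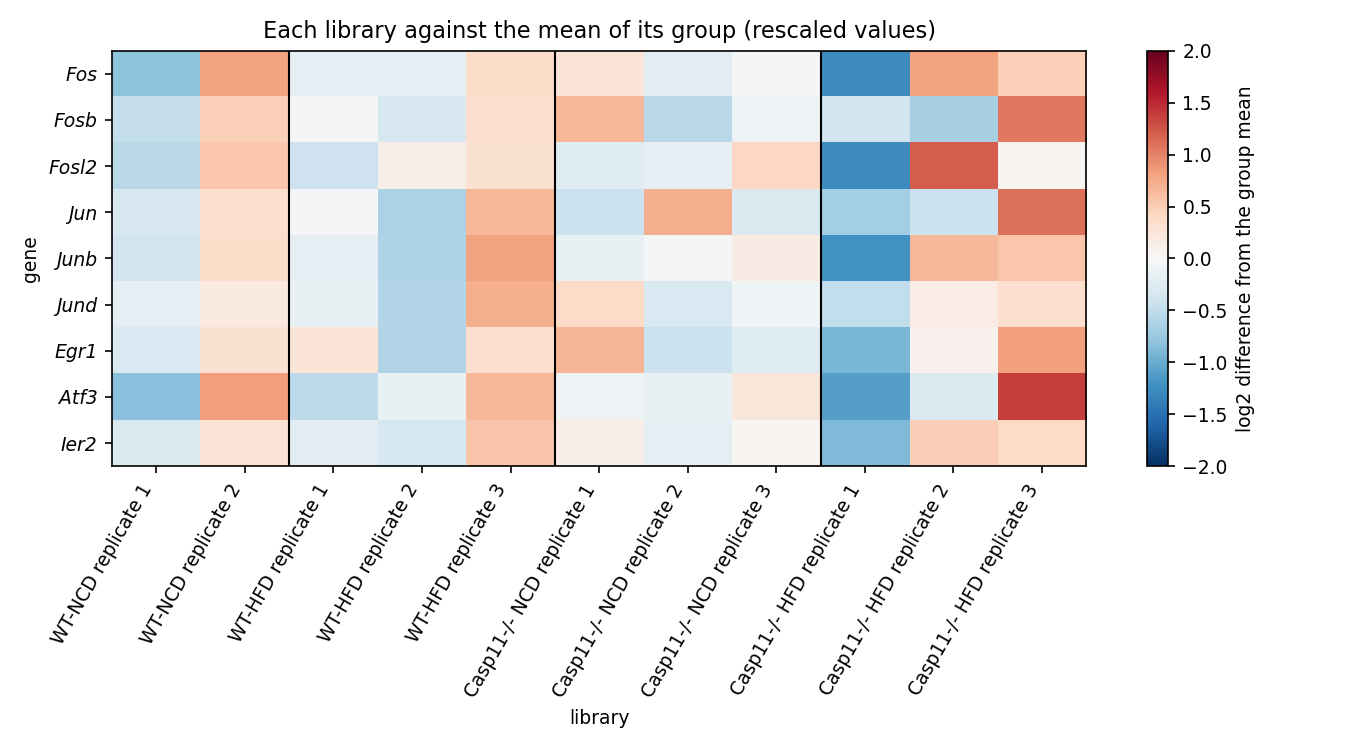
Difference of each of 11 libraries (columns) from the mean of its group, for 9 immediate early genes (rows), in log2 units of values rescaled to protein-coding genes. Red is above and blue below the group mean, the 2 WT-NCD libraries mirror each other by construction, and Casp11-/- HFD shows the widest contrast, in which replicate 1 is the lowest for 8 of 9 genes.

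The first comparison asked how these genes differed between HFD and NCD in WT mice. With all 12 libraries, 9 of the 10 had a lower fitted level on HFD, but with the 1% of genes of highest mean left out, Fos and Junb among them, 6 of 8 were higher (median 0.51, beside 0.42 for all genes). The median of their log2 fold changes, taken on log2(TPM + 1), which understates low genes, was −0.46, beside −0.51 for all 19498 genes tested. None passed limma (0 of 10 with an adjusted p under 0.05 and 0 of 10 with an unadjusted p under 0.05), while 0.113% of all genes were called and 6.96% had an unadjusted p under 0.05. After rescaling, with 12 libraries, the median of the 10 was −0.16, beside −0.02 for all genes. Before rescaling, Jun had the lowest value, −1.56 (SE 1.20, limma adjusted p = 0.513), followed by Ier2 at −1.20, Jund at −0.97 and Atf3 at −0.60. Junb was at −0.55, Fosb at −0.38, Egr1 at −0.37 and Egr2 at −0.23, while Fosl2 was at 0.34 and Fos at −0.0011. The interval of Fos ran from −2.55 to 2.55, so these 12 libraries left a wide range of differences possible.

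WT-NCD replicate 3 decided this comparison. Without it, 9 of the 10 genes passed the filter on low values (Egr2 did not), all 9 were lower on HFD, and their median was −1.76, beside −0.27 for the 17950 genes tested. Jun, Jund and Ier2 fell, which makes 3 of 9 called, where 2.18% of all genes were called and 2.04% were called lower. Jun fell from 187 ± 71.8 TPM (SD, n = 2) to 20.4 ± 12.6 TPM (SD, n = 3), or 9.65-fold on the TPM + 1 scale (−3.27 in log2, SE 0.611). Its limma adjusted p was 0.0020, in a range of 0.000249 to 0.838 over 35 settings. Jund fell from 182 ± 47.4 TPM (SD, n = 2) to 32.5 ± 21.0 TPM (SD, n = 3), or 6.19-fold (−2.63 in log2, SE 0.595), with a limma adjusted p of 0.0128 (range 0.0027 to 1.0). Ier2 fell from 107 ± 38.1 TPM (SD, n = 2) to 21.6 ± 11.95 TPM (SD, n = 3), or 5.06-fold (−2.34 in log2, SE 0.595), with a limma adjusted p of 0.0327 (range 0.00744 to 0.998).

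The other 6 genes did not pass. Junb had a log2 fold change of −2.25 (limma adjusted p = 0.0876), Fos of −1.76 (0.229), Egr1 of −1.52 (0.268), Atf3 of −1.28 (0.364), Fosb of −1.27 (0.335) and Fosl2 of −0.89 (0.450), all adjusted by limma. An unadjusted p under 0.05 was found for 6 of the 9, and for 15.2% of all genes. All 3 WT-HFD libraries lay below both remaining WT-NCD libraries for 7 of 9 genes, as they did for 40.3% of all genes, and Fosl2 and Atf3 overlapped. The 3 calls rest on 2 control libraries. Leaving out 1 of these as well leaves a single WT-NCD library, which is assumed to vary like the other groups, since they alone then give the spread. On those terms, Jun was at −2.87 without WT-NCD replicate 2. A fit with a single WT-NCD library cannot settle how far the 3 calls depend on either of the 2. With both kept and WT-HFD replicate 2 left out, Jun alone was called, where 1.14% of all genes were called.

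Part of the difference followed the scale. After rescaling to protein-coding genes, without WT-NCD replicate 3, the median of the 9 was −1.01, beside 0.08 for all genes, and 0 of 9 had an adjusted p under 0.05, while 4 of 9 had an unadjusted p under 0.05 (18.7% of all genes) and 0.809% of all genes were called. Of these, 63 were higher and 37 lower on HFD, against 24 higher and 367 lower on the deposited scale. Jun was then at −2.55 (SE 0.547, limma adjusted p = 0.0512), Jund at −1.90 (SE 0.406, limma adjusted p = 0.0508) and Ier2 at −1.61 (SE 0.428, limma adjusted p = 0.0981). On this scale, the WT-HFD libraries lay below both WT-NCD libraries for Jun, Junb, Jund, Egr1 and Ier2, 5 of 9 genes, as for 19.8% of all genes.

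**Figure D3:**
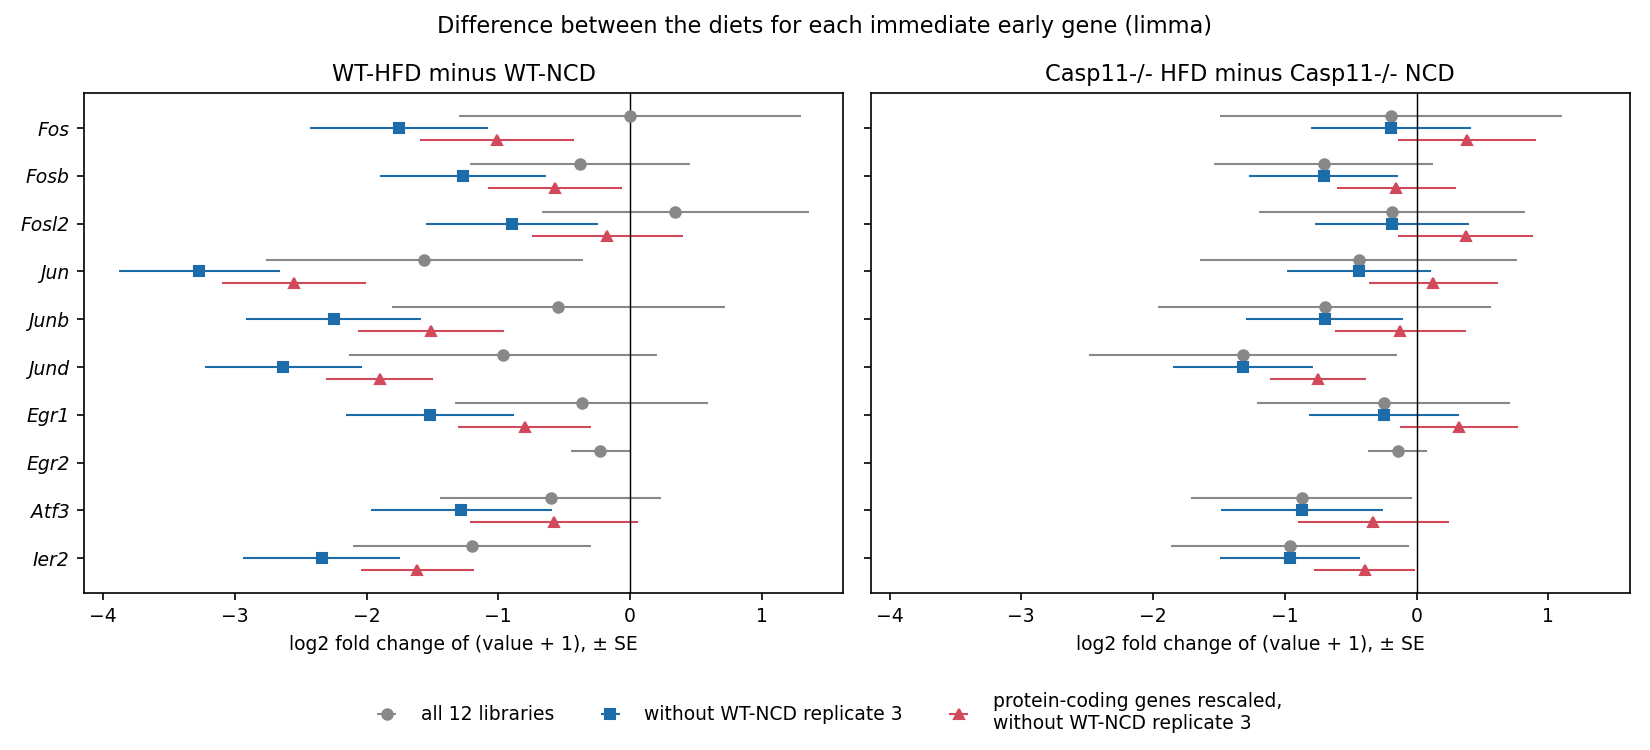
Log2 fold change of each immediate early gene between HFD and NCD, with its SE from limma, in WT (left) and in Casp11-/- mice (right), for all 12 libraries (grey), without WT-NCD replicate 3 (blue) and with protein-coding genes rescaled as well (red). In WT mice, 9 genes lie left of 0 without WT-NCD replicate 3, with Jun lowest at −3.27, and in Casp11-/- mice the values lie between −1.32 and 0.38.

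The same comparison was made in Casp11-/- mice. All 10 genes had a lower fitted level on HFD, and their median was −0.57 on the log2 scale, beside −0.43 for all genes. In limma, 0 of 10 were called, 0 of 10 had an unadjusted p under 0.05 (8.48% of all genes), and 0% of all genes were called. Leaving out WT-NCD replicate 3, which enters this comparison through the shared spread and the filter alone, the median of 9 genes was −0.70, beside −0.51 for all genes. Again 0 of 9 were called, while 1.1% of all genes were, and 1 of 9, Jund, had an unadjusted p under 0.05, as 27% of all genes did (log2 fold change −1.32, SE 0.532, limma adjusted p = 0.148). Jund was also the 1 gene of 9 whose 3 HFD libraries all lay below all 3 NCD libraries, as 16.4% of all genes did. Its adjusted p was 0.0152 in limma when Casp11-/- NCD replicate 2 was left out too, where 49.1% of all genes were called. This was the 1 call in Casp11-/- mice over 35 settings, in which its adjusted p reached 1.0. Jun was at −0.44, Fos at −0.19, Junb at −0.70 and Ier2 at −0.96. The 95% interval of Jun without WT-NCD replicate 3 ran from −1.51 to 0.63. It rests on a normal approximation and is narrower than limma's t distribution would give. With protein-coding genes rescaled, the median of the 9 was −0.12, beside −0.19 for all genes, and Fos, Fosl2, Jun and Egr1 turned to between 0.13 and 0.38.

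The genotypes were then compared on each diet. On NCD, the median difference of Casp11-/- from WT was 0.54 in log2, beside 0.04 for all genes. It turned to −0.77, beside 0.08, without WT-NCD replicate 3. On HFD, where that library takes no part, the median was 0.45, beside −0.02, and 0.51 without it, with the same libraries and 1 gene fewer. Both comparisons gave 0 of 10 genes called by limma, with 0 of 10 at an unadjusted p under 0.05 and 0% of all genes called. Of all 19498 genes, 293 on NCD and 30 on HFD had an unadjusted p under 0.05. Without WT-NCD replicate 3, 0 of 9 were called on either diet, where 0.0557% of all genes were called on NCD and 0% on HFD. At an unadjusted p under 0.05, 1 of 9 was found on NCD (3.24% of all genes) and 0 of 9 on HFD (0.752% of all genes). After rescaling without that library, the median was −0.64 on NCD and 0.49 on HFD, again with 0 of 9 called. An unadjusted p under 0.05 was then found for 1 of 9 on NCD, Jun, and for 0 of 9 on HFD. The shares of all genes in these rescaled comparisons are not given here, so the counts have no background to be read against. Before rescaling, the 1 gene on NCD was also Jun, whose log2 fold change was −1.93 (limma adjusted p = 0.523, in a range of 0.143 to 1.0). Its 3 Casp11-/- NCD libraries lay below both WT-NCD libraries, as for 2.64% of all genes.

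Whether the diet difference itself differed between genotypes was tested as an interaction. With all libraries its median over the 10 genes was −0.17, beside −0.03 for all genes, and 0 of 10 genes and 0% of all genes were called by limma. An unadjusted p under 0.05 was found for 0 of 10, and for 154 of all 19498 genes. Without WT-NCD replicate 3 the median was 1.31, beside −0.12, and 0 of 9 genes and 0.00557% of all genes were called. Jun had an interaction of 2.83 on the log2 scale, the 1 gene of 9 with an unadjusted p under 0.05 (2.6% of all genes), and its limma adjusted p was 1.0 (range 0.246 to 1.0). Rescaled, the median was 1.15, with 0 of 9 called and 1 of 9, Jun, at an unadjusted p under 0.05. The median and the shares of all genes for the rescaled interaction are not given here, so these values have no background to be read against. The lower levels of Jun, Jund and Ier2 on HFD in WT mice were therefore not shown to differ from those in Casp11-/- mice.

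Ratios of 2 genes within a library do not depend on how the library was scaled. Jun over Junb was 0.652, 0.616 and 0.577 in WT-NCD and 0.334, 0.293 and 0.274 in WT-HFD. All 3 WT-NCD libraries, replicate 3 included, lay above all WT-HFD libraries, and Jun over Jund did the same, at 0.903 to 1.103 in WT-NCD against 0.604 to 0.681 in WT-HFD. In Casp11-/- mice, Jun over Junb was 0.254, 0.528 and 0.224 on NCD and 0.538, 0.173 and 0.546 on HFD, so the diets overlapped. Fos over Fosb was 4.37 to 12.5 in 10 libraries, 24.7 in Casp11-/- HFD replicate 2 and 1.79 in WT-NCD replicate 3. Fos over Fosl2 overlapped between the WT diets, at 3.36 to 8.92 in WT-NCD and 3.43 to 5.09 in WT-HFD. Fos over Junb did too, at 0.729 to 1.34 and 1.02 to 1.89. Fos over Jun did not overlap, at 1.12, 2.17 and 1.51 in WT-NCD and 4.24, 6.46 and 3.74 in WT-HFD. In Casp11-/- mice Fos over Jun overlapped, at 4.32, 1.35 and 3.21 on NCD and 2.09, 7.55 and 2.03 on HFD. The Jun ratios of WT-NCD replicate 3 come from low values (4.18 TPM of Jun) in the library that stood apart. The ratios were chosen after the values were seen, and 3 against 3 libraries cannot give an exact permutation p below 0.1, so they were not tested.

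**Figure D4:**
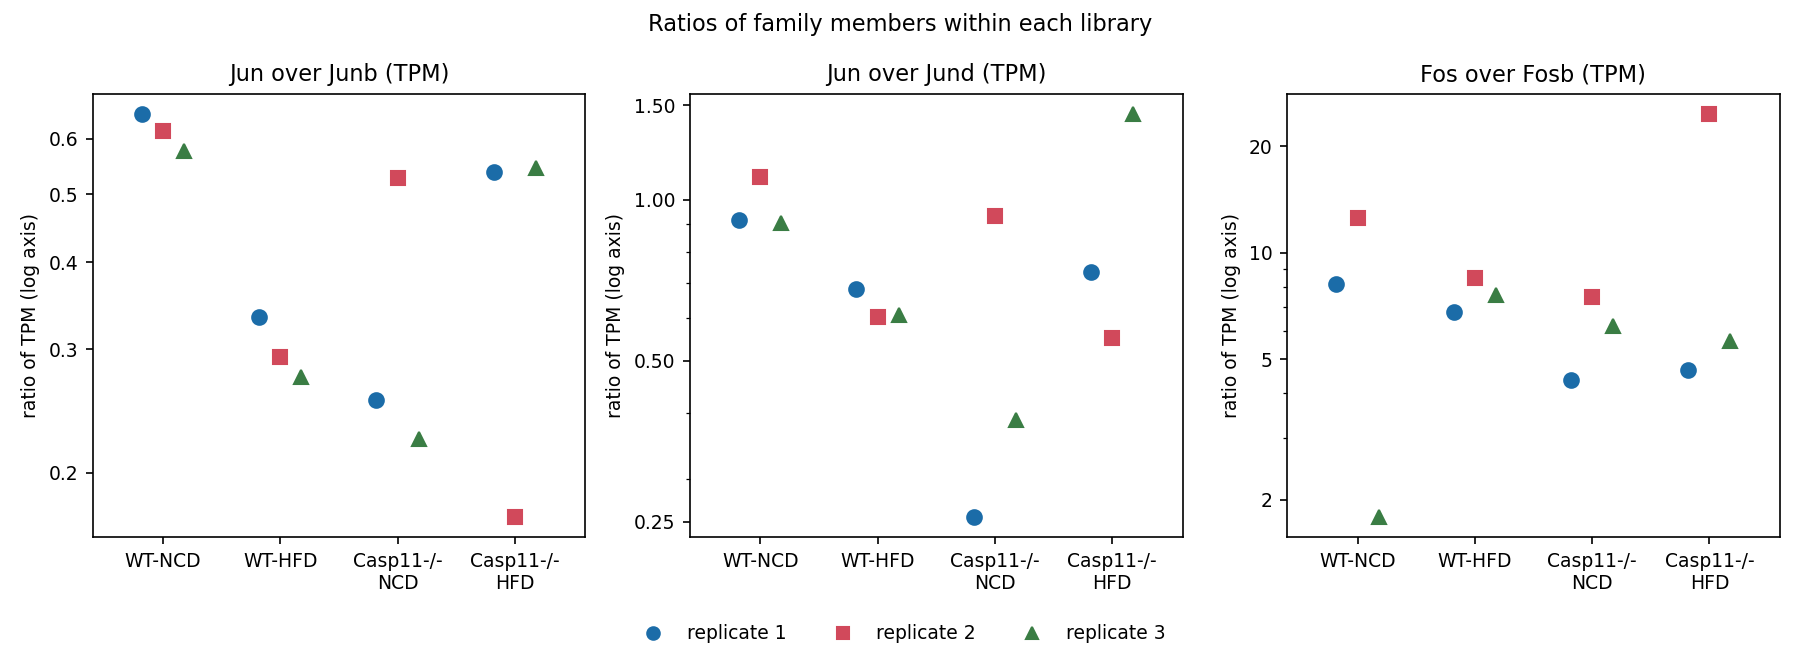
Ratio of the TPM of Jun to Junb, Jun to Jund and Fos to Fosb (log axes) in each library, by genotype and diet. Jun over Junb and Jun over Jund separate the 3 WT-NCD from the 3 WT-HFD libraries, while the Casp11-/- diets overlap, and Fos over Fosb has 1 high point (24.7) and 1 low point (1.79).

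Casp11-/- HFD replicate 2, the library with the unusual ratios, was the highest of all HFD libraries for 4 of 9 genes, Fos (202 TPM), Fosl2 (61.8 TPM), Junb (155 TPM) and Ier2 (46.2 TPM), but low in its group for Fosb (8.17 TPM). It also stood apart in neutrophil markers, which held 1.77% of its protein-coding TPM, against 0.0558% to 0.257% in the other 10 of the 11 libraries, with 5 or 6 of the 6 markers above the floor in each. The part of these cells in the ratios was not tested.

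Genes of the same early response were compared through 6 further lists. Of 32 other immediate early genes, 31 were tested in WT mice, and 0 were called with all 12 libraries by limma (5 with an unadjusted p under 0.05). Of all genes, 0.113% were called there and 6.96% had an unadjusted p under 0.05. The counts that follow are without WT-NCD replicate 3, where the median of all genes was −0.27, 2.18% were called and 15.2% had an unadjusted p under 0.05. Of the 31, 28 of 31 were lower on HFD (median −1.20 in log2), and 4 fell: Klf2, a quiescence factor of lymphocytes and endothelium, Rhob, a small GTPase, Ppp1r15a, which restarts translation after stress, and Ier5l. Of 14 feedback inhibitors, 13 were lower (median −1.41) and 1 fell, Dusp2, a MAP kinase phosphatase of immune cells. Of 14 heat shock and chaperone genes, 14 were lower (median −0.92) and 3 fell, namely Hspa1a and Hspa1b, which encode inducible Hsp70, and its co-chaperone Dnajb1. Of 12 early cytokines and chemokines, 20 upstream kinases and factors and 16 other leucine zipper partners, 0 were called by limma, with medians of −0.56, −0.64 and −0.43, and 3, 4 and 4 had an unadjusted p under 0.05. In Casp11-/- mice, 0 genes of the 6 lists were called by limma on the deposited scale, where 1.1% of all genes were called. An unadjusted p under 0.05 was found there for 5 of 31 other immediate early genes, 2 of 14 feedback inhibitors, 1 of 14 heat shock genes, 3 of 12 cytokines, 9 of 20 upstream factors and 2 of 16 leucine zipper partners, beside 27% of all genes. After rescaling, 0 genes of the lists were called in WT mice by limma (10, 4, 3, 3, 2 and 4 genes, in the order of the lists above from the other immediate early genes on, had an unadjusted p under 0.05). Of all genes, 0.809% were called in that fit and 18.7% had an unadjusted p under 0.05. In Casp11-/- mice 4 then rose, where 3.55% of all genes were called and 24.8% had an unadjusted p under 0.05. They were the kinase gene Sgk1 (1.56, limma adjusted p = 0.0337), Ier3 (1.47, 0.0428 by limma), the cytokine gene Il1a (2.90, 0.0279 by limma) and Maf (1.92, 0.0291 by limma), and the first 3 were named after their values were seen.

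Of these 8 called genes, Hspa1a had the largest fold. WT-NCD replicates 1 and 2 held 771 and 963 TPM, replicate 3 held 4.76 TPM, and the WT-HFD libraries held 24.8, 12.7 and 49.7 TPM. Without replicate 3 the difference was −5.04 in log2 (SE 1.04, limma adjusted p = 0.00567). Over the settings, its adjusted p ranged from 2.88e-05 to 0.718. In Casp11-/- mice it was at 23.4, 267 and 690 TPM on NCD and at 21.2, 20.6 and 358 TPM on HFD. Within each of these groups, then, its level in the highest library was many times that in the lowest. Hspa1a and Hspa1b are near-identical copies, and how reads were divided between them is not given in the sources used here. For Dnajb1 the same 2 WT-NCD libraries held 157 and 177 TPM, and the WT-HFD libraries held 14.04, 10.4 and 24.2 TPM (log2 fold change −3.37, limma adjusted p = 0.00612, range 0.000181 to 0.798). Rhob was at 120 and 191 TPM against 27.3, 13.2 and 39.8 TPM (−2.58, limma adjusted p = 0.00892, range 0.00144 to 0.973), and Dusp2 at 80.4 and 129 TPM against 15.6, 11.7 and 24.1 TPM (−2.56, limma adjusted p = 0.0104, range 0.000807 to 0.905). Klf2, Ppp1r15a and Ier5l had log2 fold changes of −2.50, −2.53 and −2.20 with limma adjusted p of 0.0360, 0.0282 and 0.0269, and the adjusted p of the 8 called genes ranged from 2.88e-05 to 0.984 over the settings. After rescaling without WT-NCD replicate 3, none of the 8 was called: the limma adjusted p was 0.0665 for Rhob, 0.0771 for Dusp2, 0.0836 for Ier5l, 0.107 for Klf2, 0.116 for Dnajb1, 0.132 for Hspa1a, 0.142 for Hspa1b and 0.150 for Ppp1r15a. The genes of highest mean level in the lists without a call were Ccl3, an inflammatory chemokine (−1.91, limma adjusted p = 0.0805), the p38 kinase gene Mapk14 (−0.77, 0.451 by limma) and Maf, a leucine zipper factor of resident macrophages (0.76 in WT mice, 0.458 by limma, and 1.49 rescaled, 0.133 by limma), and Zfp36l2, which binds AU-rich messengers, had the highest mean of the feedback inhibitors (−1.90, 0.123 by limma).

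**Figure D5:**
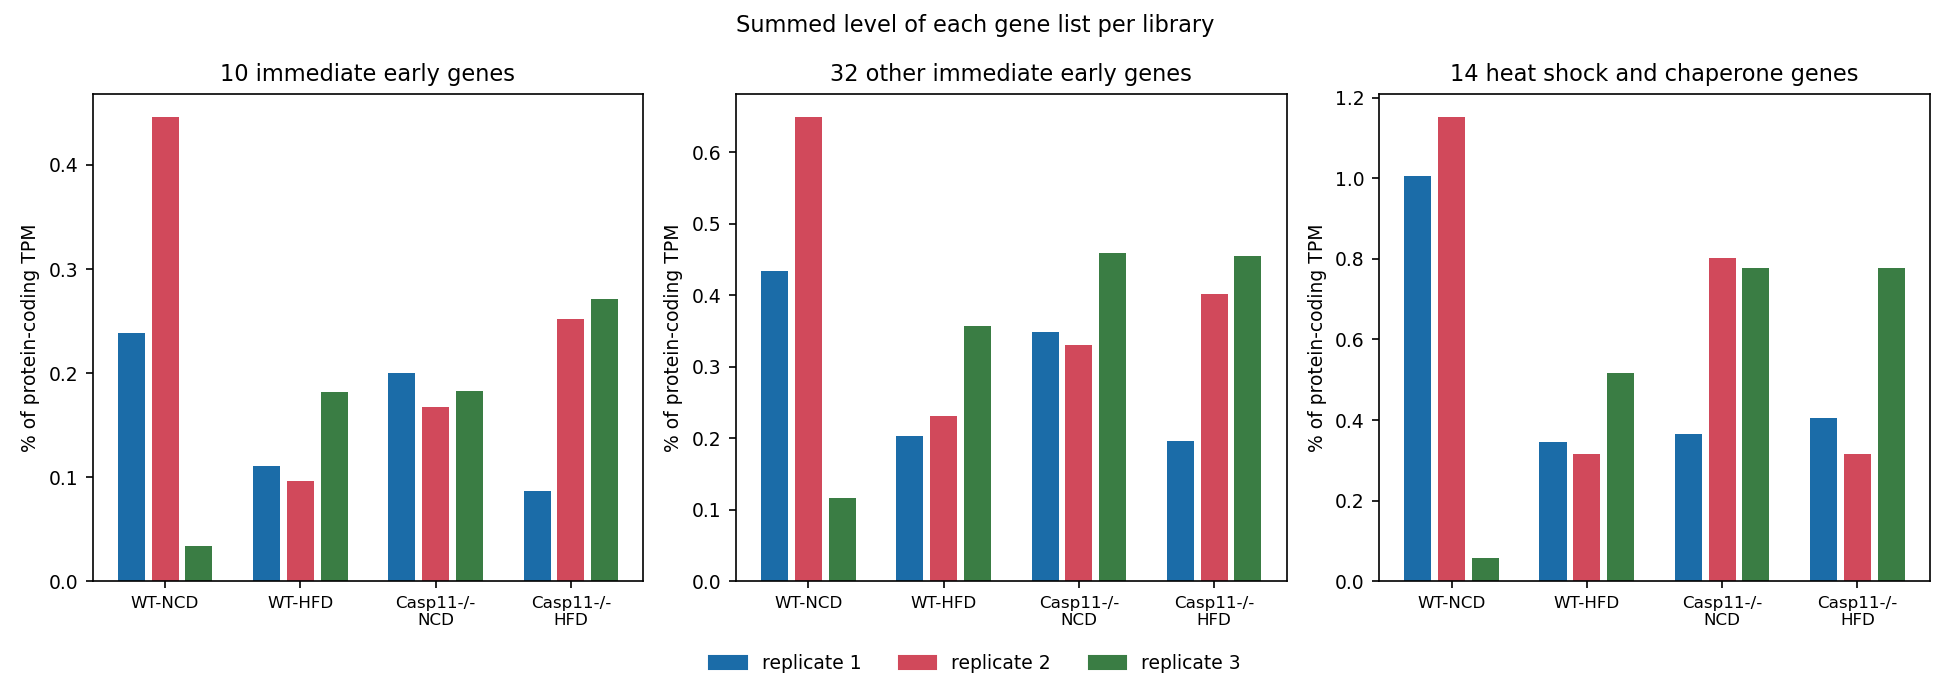
Summed level of 3 gene lists in each library, as a percentage of protein-coding TPM, by genotype and diet, with 1 bar per replicate. The 10 immediate early genes and the 32 others peak in WT-NCD replicate 2 (0.446% for the 10 genes), whereas the heat shock genes are low in Casp11-/- NCD replicate 1 and Casp11-/- HFD replicate 2, in which the 10 immediate early genes are not.

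The summed level of the 10 genes as a share of protein-coding TPM was 0.239% and 0.446% in WT-NCD replicates 1 and 2 (0.0337% in replicate 3), 0.111%, 0.0962% and 0.182% in WT-HFD, 0.201%, 0.168% and 0.183% in Casp11-/- NCD, and 0.0868%, 0.252% and 0.271% in Casp11-/- HFD. The 2 WT-NCD libraries lay above the WT-HFD libraries, and Casp11-/- NCD lay inside the range of Casp11-/- HFD. Heat shock and chaperone genes gave 1.006% and 1.15% in WT-NCD replicates 1 and 2 and 0.316% to 0.516% in WT-HFD. In Casp11-/- mice they gave 0.365%, 0.801% and 0.778% on NCD and 0.405%, 0.315% and 0.776% on HFD, an order of the libraries that the 10 genes did not follow.

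Some cell type markers moved with the diet as well, while others overlapped between the diets. The 5 B cell markers held 0.663% and 0.857% of protein-coding TPM in WT-NCD replicates 2 and 1, and 0.216% to 0.336% in WT-HFD, with 0.457% to 1.31% in Casp11-/- NCD and 0.256% to 0.302% in Casp11-/- HFD. The 5 NK cell markers held 0.112% and 0.140% in the 2 WT-NCD libraries and 0.0489% to 0.0663% in WT-HFD, with 0.0553% to 0.116% in Casp11-/- NCD and 0.0413% to 0.0491% in Casp11-/- HFD. All 5 of the B cell and of the NK cell list were above the floor in every library. The 10 Kupffer cell markers went the other way, at 0.0308% and 0.0373% in the 2 WT-NCD libraries and 0.188% to 0.367% in WT-HFD, and at 0.0288% to 0.0886% in Casp11-/- NCD and 0.144% to 0.218% in Casp11-/- HFD. The 6 hepatocyte markers overlapped between the diets in WT mice, at 4.39% and 7.75% on NCD and 4.15% to 8.23% on HFD. The 6 sinusoidal endothelial markers were at 0.0558% and 0.116% in the 2 WT-NCD libraries and 0.132% to 0.272% in WT-HFD, and at 0.0098% to 0.0990% in Casp11-/- NCD and 0.214% to 0.490% in Casp11-/- HFD. Neutrophil markers were at 0.212% and 0.257% in the 2 WT-NCD libraries and 0.119% to 0.164% in WT-HFD. In Casp11-/- mice they overlapped, at 0.111% to 0.183% on NCD and 0.0558% to 1.77% on HFD. Monocyte markers overlapped in WT mice, at 0.154% and 0.428% on NCD and 0.195% to 0.276% on HFD. T cell markers did so too, at 0.0740% and 0.0807% on NCD and 0.0450% to 0.0773% on HFD. Both lists also overlapped between the diets in Casp11-/- mice. The 5 erythroid markers were at 0.874% to 4.18% in Casp11-/- NCD and 0.172% to 0.276% in Casp11-/- HFD, and overlapped between the diets in WT mice. The 5 stellate cell markers, of which as few as 3 were above the floor, were at 0.00472% and 0.00548% in the 2 WT-NCD libraries and 0.00804% to 0.0114% in WT-HFD. The part of cell make-up in the levels of Jun, Jund and Ier2 was not tested.

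The genes most alike were found by correlating 4812 protein-coding genes of at least 10 TPM on average with the mean of the immediate early genes other than Egr2. This was done over the 11 libraries after rescaling. The 10 genes most alike were Sik1, a kinase gene induced by cAMP (r = 0.921), Nfkbia, the inhibitor of NF-κB (0.910), Jak3, a cytokine receptor kinase of lymphocytes (0.898), the histone gene H3f3b (0.881), Klf2 (0.880), the myosin gene Myh9 (0.875), Gatad2a (0.874), Ier5 (0.866), Pnrc1 (0.862) and Csrnp1 (0.862). The median r of all candidates was 0.207, and Nfkbia, Klf2, Ier5 and Csrnp1 were in the lists above. The correlations are descriptions over libraries that share groups.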

How the data were processed

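Per the labels and the methods of the study, the authors prepared stranded, random-primed total RNA libraries and sequenced single-end reads. The submitters' processing notes name STAR and mm10 or GRCm38.p6. The deposited values are scores in TPM that the authors computed in Qlucore Omics Explorer, 1 library per table, with low values raised to a floor of 1.01. The origin of the floor and the tool versions are not given in the sources used here. Every library sums to nearly the same total by construction, so the depth, and with it the precision of a value, is unknown.

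The 10 genes and the lists were chosen with earlier results of these data known. The test took every gene that exceeded the floor in 3 or more libraries, on log2(TPM + 1) with limma 3.58.1 (R 4.3.3, trend, 1 fit over the 4 groups), two-sided, with Benjamini-Hochberg adjustment over all genes tested and a threshold of 0.05. Because the files hold no counts, no count test was run. Rescaled values sum protein-coding genes, as typed by RefSeq, to a common total. Other alternatives were a pseudocount of 0.1, a filter on every library, the 1% of genes of highest mean left out, a replicate block and libraries left out. Named were all 10 genes, the list genes with an adjusted p under 0.05, the gene of highest mean in each list, and the 10 genes most alike. The code was tested on simulated data, drawn independently for each gene. A log2 change of 2 between the WT diets had an adjusted p under 0.05 in limma for 15 of 100 genes with 12 libraries. With 11 libraries it did so for 49 of 100. A log2 change of 4 did so for 72 and 97 of 100, and unchanged genes for 7 and 11 of 19298. A gene not called may therefore still differ. Coordinates are from the GENCODE annotation of GRCm38 and promoters from RefSeq. Tables used Python 3.11.15, pandas 2.3.3 and numpy 2.4.6, and figures matplotlib 3.10.9.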

Additional observations from a re-analysis of the deposited data

How the results depend on the processing

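Depth is unknown, the labels do not tie each library to its own mouse, and WT-NCD rests on 2 libraries once replicate 3 is left out. Settings that combine that omission with another, rescaling apart, were chosen after seeing the data. The cause of each change below was not tested, fold changes are in log2, and Egr2 could not be tested without WT-NCD replicate 3. A gene's direction changed in 34 of 316 values for diet in WT, 28 of 316 for diet in Casp11-/-, 124 of 317 for genotype on NCD, 14 of 316 for genotype on HFD and 119 of 307 for the interaction.

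With 1 or 2 libraries left out, 0 to 4 genes were called for diet in WT, where 0% to 6.04% of all genes were called. For diet in Casp11-/- it was 0 to 1, where 0% to 49.1% of all genes were called. The median of the genes ran from −2.63 to 0.34 for diet in WT, −1.14 to 1.53 for genotype on NCD and −1.07 to 1.81 for the interaction. For diet in WT, Fos ran from −2.63 to 1.32, Fosb from −1.82 to 0.34, Fosl2 from −1.53 to 1.28, Junb from −2.77 to 0.53, Jund from −3.11 to 0.0016, Egr1 from −1.91 to 0.40 and Atf3 from −2.20 to 0.19. For diet in Casp11-/-, Fos ran from −0.65 to 0.53, Fosl2 from −0.83 to 0.52 and Egr1 from −0.73 to 0.29, and Jun for genotype on NCD from −2.34 to 0.83.

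A pseudocount of 0.1 put Fos at 0.049 for diet in WT. Rescaling to protein-coding genes put Fos at 0.33 for diet in WT, and for diet in Casp11-/- Fos at 0.38, Fosl2 at 0.37, Jun at 0.13, Egr1 at 0.32 and Egr2 at 0.17. Rescaling without WT-NCD replicate 3 put Fosl2 at −0.17 for diet in WT and left Fos at 0.38, Fosl2 at 0.37, Jun at 0.13 and Egr1 at 0.32 for diet in Casp11-/-. Leaving out the 1% of genes of highest mean, Fos and Junb among them, put Fosb at 0.68, Jund at 0.16, Egr1 at 0.74, Egr2 at 0.46 and Atf3 at 0.55 for diet in WT, and Fosl2 at 0.41, Jun at 0.17, Egr1 at 0.36 and Egr2 at 0.22 for diet in Casp11-/-, with Jun at 0.30 for genotype on NCD. Without WT-NCD replicate 3 as well, 2 genes (1.73% of all genes) were called for diet in WT with Fosl2 at −0.26, the interaction median was 1.25, and Fosl2, Jun and Egr1 were at 0.41, 0.16 and 0.36 for diet in Casp11-/-. A filter above the floor in every library, without WT-NCD replicate 3, called 4 genes (3.11% of all genes) for diet in WT, with Fosl2 at −0.89 and an interaction median of 1.31.

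The replicate block called 0 genes in each of the 5 comparisons with all 12 libraries and left the diet in WT median at −0.46. Without WT-NCD replicate 3, the replicate block called 4 genes (6.33% of all genes) for diet in WT, with medians of −2.004 for diet in WT, −1.05 for genotype on NCD and 1.58 for the interaction, and Fosl2 at −1.13 for diet in WT. There, r of the deviations was over 0.1 in 8 of 15 same-numbered pairs (−0.327 to 0.467, median 0.177) and in 10 of 30 other pairs (median −0.060). Not every same-numbered pair passed 0.1 and no label ties the numbers to a shared source, so they were not taken as pairs.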
